A study of Mus musculus with 9 samples.

Results

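A set of 10 genes of lung epithelium, which encode surfactant proteins, secretoglobins and epithelial surface proteins, was followed across 9 libraries of sorted mouse lung cells. The 10 genes were picked by name (Scgb1a1, Scgb3a1, Scgb3a2, Sftpa1, Sftpb, Sftpc, Sftpd, Ager, Cldn18 and Epcam) out of 54449 genes, and each name matched 1 entry. All 10 were among the 13642 genes whose mean over the 9 libraries was at least 5, and were tested with them. The cells were labelled as lung eosinophils of C57BL/6 mice. PyMT tumour cells had been injected into the tail vein for the Siglec-F high group (n = 3) and the Siglec-F int group (n = 3), which are sorted fractions with much or intermediate surface Siglec-F. Mice of the naive group (n = 3) had received saline alone. Cells of 3 to 4 mice went into each library, and n is the number of such pools. The age and sex of the mice and the time from injection to sorting are not given in the sources used here.

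Surfactant is the film of lipid and protein that keeps alveoli from collapsing. Alveolar type II cells make it, flat alveolar type I cells form the gas exchange surface beside them, and club cells of the small airways secrete secretoglobins. None of these proteins is a product of eosinophils, and the transcripts are known as markers of the epithelium of the lung.

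Values are the deposited normalized counts, which the authors had scaled by library size factors. The libraries held 4941900, 7171066 and 5148291 reads in the Siglec-F high group, 7517513, 11566723 and 12495639 in the Siglec-F int group and 4453385, 2205949 and 5529406 in the naive group. Fold changes are differences of log2(normalized count + 1), which understates the change of low genes, with the SE and the adjusted p of limma over all tested genes, and a gene was called at an adjusted p under 0.05. Defining markers of eosinophils were scarce in all 3 groups. Siglecf, the gene of the sort marker, averaged 11.9 ± 7.35 in Siglec-F high, 12.8 ± 6.78 in Siglec-F int and 16.02 ± 13.9 in naive libraries (SD, n = 3 each), and was not called in either comparison with naive. Epx, eosinophil peroxidase, averaged 5.69, 1.69 and 1.15, Il5ra 1.42, 2.68 and 1.497, and Ccr3 10.03, 3.76 and 0 in the same order. Of the 14 eosinophil genes in the table, Ccr3, Prg3 and Cebpe had 0 reads in the naive group and none had 0 in the others. Markers of pigment cells, all 12 of those listed, took 0.0100% to 0.0359% of reads in the Siglec-F high libraries, 0.0259% to 0.0417% in the Siglec-F int libraries and 1.40% to 1.85% in the naive libraries. The pigment cell markers go against the label of the naive libraries. The low values of Siglecf, Epx, Il5ra and Ccr3 go against the label of all 9, while Prg2 in library 3 of both sorted fractions and the Ear genes were not low. Every comparison is therefore one between libraries as labelled. Siglec-F high library 1 stood apart: its correlation with its group mates was 0.705 and 0.763, against 0.842 to 0.954 for all other pairs within a group, and 31.1% of its reads were mitochondrial, against 11.5% to 21.2% elsewhere. GC content went with every comparison. From the quintile of genes lowest in GC to the highest, the median log2 fold change ran through 1.15, 0.46, -0.17, -0.84 and -1.29 for Siglec-F high against naive, and through 0.90, 0.37, -0.15, -0.56 and -0.68 for Siglec-F int against naive. Where values of the 10 genes moved with that library or GC, most are also given with the library left out or the trend removed. No such values are given for the other named genes.

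The promoters of 3 of the genes are shown because these genes stand for the patterns described here: Scgb3a1 and Sftpa1 were on average lowest in the Siglec-F int libraries, and Sftpb was lower in most libraries from metastatic lungs than in naive ones. Each runs from 250 bases before to 50 bases after the gene start (RefSeq, GRCm38.p6): Sftpb at chr6:72304360-72304659, Sftpa1 at chr14:41131538-41131837 and Scgb3a1 at chr11:49663345-49663644, all on the plus strand. Capitals mark CTCAAG or its reverse complement CTTGAG, the core bound by NKX2-1, a transcription factor that activates surfactant and secretoglobin genes. They also mark TGTTTGC or its reverse complement GCAAACA, a variant of the forkhead core, and the TATA box TATAAA.
Sftpb: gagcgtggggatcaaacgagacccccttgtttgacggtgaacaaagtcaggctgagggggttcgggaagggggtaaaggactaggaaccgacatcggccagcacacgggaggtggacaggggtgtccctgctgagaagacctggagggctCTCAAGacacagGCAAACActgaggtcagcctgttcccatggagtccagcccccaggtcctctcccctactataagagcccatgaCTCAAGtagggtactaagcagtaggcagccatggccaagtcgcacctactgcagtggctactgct
Sftpa1: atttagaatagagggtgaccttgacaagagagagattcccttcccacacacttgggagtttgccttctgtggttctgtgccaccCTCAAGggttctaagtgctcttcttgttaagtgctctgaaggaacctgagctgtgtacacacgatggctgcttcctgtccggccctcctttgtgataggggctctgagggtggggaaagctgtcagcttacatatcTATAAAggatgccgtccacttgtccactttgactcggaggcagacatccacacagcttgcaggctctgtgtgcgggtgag
Scgb3a1: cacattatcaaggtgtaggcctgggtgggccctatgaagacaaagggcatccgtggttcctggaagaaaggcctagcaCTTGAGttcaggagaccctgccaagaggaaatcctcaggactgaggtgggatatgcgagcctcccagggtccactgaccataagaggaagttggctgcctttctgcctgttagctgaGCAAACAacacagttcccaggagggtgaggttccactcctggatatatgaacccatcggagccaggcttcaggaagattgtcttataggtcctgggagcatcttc
The Sftpb window holds CTCAAG at -100 and -15, the Sftpa1 window holds it at -166, and the Scgb3a1 window holds its reverse complement at -172, counted from the gene start. CTCAAG on either strand occurs in 15.9% of 32851 promoters of the same length. The forkhead variant occurs at -88 in Sftpb and at -55 in Scgb3a1, and in 5.07% of all promoters on either strand. The TATA box at -30 in Sftpa1 has its letters, on either strand, in 13.6% of promoters. The classical forkhead core TGTTTAC was searched on both strands too and is in 3.65% of promoters. No motif overlapped another in these windows. A match describes the letters and is no measure of binding. Promoters of Ager, Cldn18 and Epcam were searched as well: both Cldn18 windows hold the forkhead variant, and the Ager and Epcam windows hold none of the 4 motifs. Scgb1a1, Scgb3a2, Sftpc and Sftpd have no entry in the promoter table.

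In Siglec-F int libraries, 9 of the 10 genes had a negative fold change against naive, and 1, Sftpa1, passed the test. Sftpd alone passed it in Siglec-F high libraries, where 8 of 10 fold changes were negative. The median of the 10 log2 fold changes was -0.76 for Siglec-F high against naive and -1.08 for Siglec-F int against naive, beside -0.11 and -0.02 over all tested genes. With the trend in GC content and transcript length removed, these medians of the 10 genes shrank to -0.13 and -0.36. Without Siglec-F high library 1, the median for Siglec-F high was -0.50. Calls over all tested genes reached 31.3% for Siglec-F high against naive and 22.3% for Siglec-F int against naive, so that 1 call among 10 genes is below the background in both. Of all tested genes, 14.7% were called higher and 16.6% lower in Siglec-F high, and 12.0% higher and 10.3% lower in Siglec-F int. Both comparisons use the same naive libraries. In bulk samples, fewer cells of a type and less RNA per cell cannot be told apart.

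**Figure D1:**
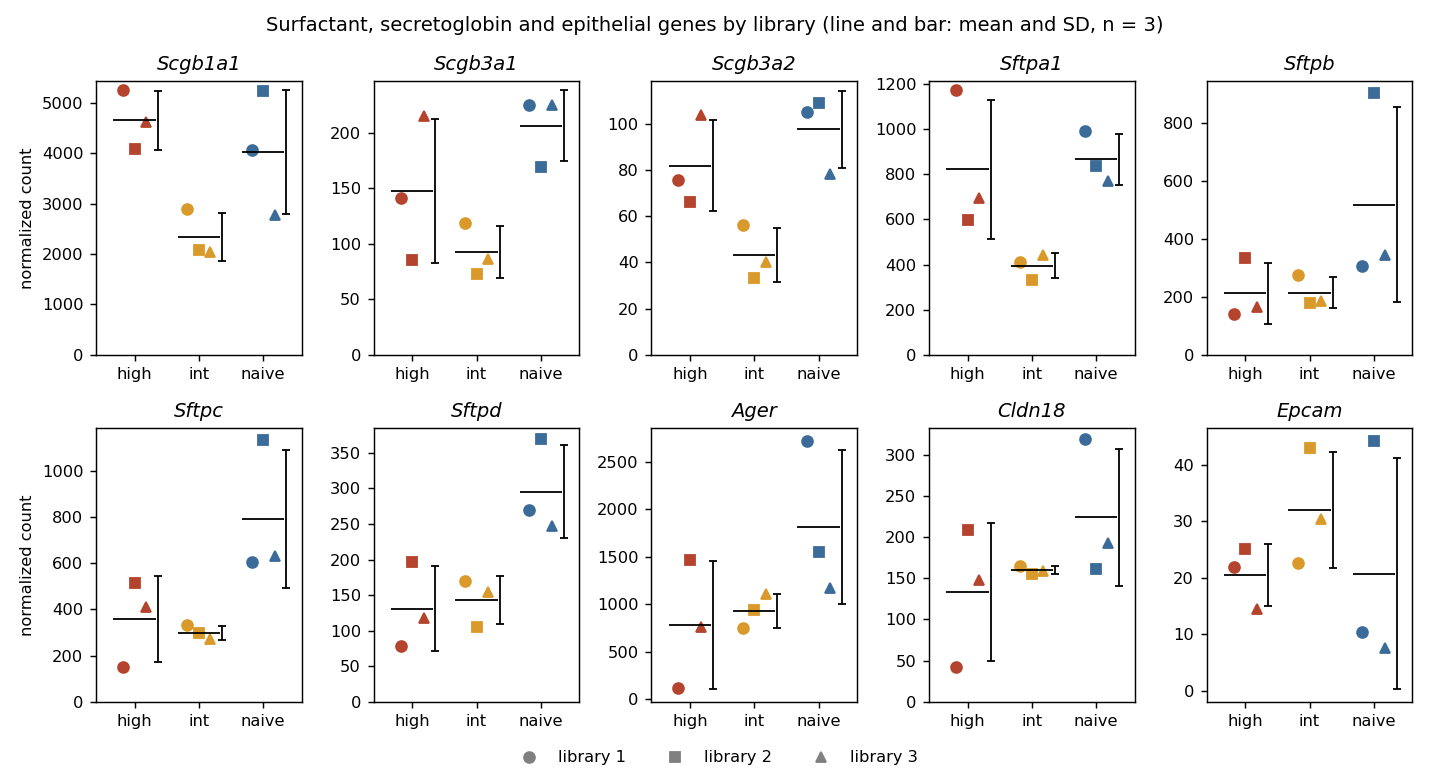
Normalized counts (vertical axes, which include 0) of the 10 genes in the Siglec-F high, Siglec-F int and naive libraries; symbols are libraries 1 to 3, lines and bars the mean and SD of 3 pools. The Siglec-F int values of Scgb1a1, Scgb3a2 and Sftpa1 lie below all Siglec-F high values, and Ager and Cldn18 are lowest in Siglec-F high library 1.

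Scgb1a1 encodes the main secretory protein of club cells (ENSMUSG00000024653.2; chromosome 19, 9083636 to 9087958, minus strand, GRCm38). It stood at 5260.2, 4085 and 4612 normalized counts in the Siglec-F high libraries, 2889, 2081 and 2029 in the Siglec-F int libraries and 4071, 5241 and 2779 in the naive libraries. All 3 Siglec-F int values lay below all Siglec-F high values, while naive library 3 fell below Siglec-F int library 1. The group means were 4653 ± 589, 2333 ± 482 and 4031 ± 1232 (SD, n = 3 each) in the Siglec-F high, Siglec-F int and naive groups. The log2 fold change was 0.25 ± 0.30 for Siglec-F high against naive (limma adjusted p = 0.539) and -0.76 ± 0.30 for Siglec-F int against naive (adjusted p = 0.0919), so neither was called. With the trend in GC content and transcript length removed, the Siglec-F int value moved to -0.06 (adjusted p = 0.922, against a range of 0.0495 to 0.922 over 23 alternatives). The Siglec-F high value then stood at 0.71 and was not called.

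Scgb3a2, a secretoglobin of airway cells, was also lowest on average in Siglec-F int (ENSMUSG00000038791.14; chromosome 18). It stood at 75.7, 66.2 and 104 normalized counts in Siglec-F high libraries, 56.4, 33.3 and 40.2 in Siglec-F int libraries and 106, 109 and 78.5 in naive libraries. The Siglec-F int libraries were the 3 lowest of the 9, and the Siglec-F high and naive ranges overlapped. Its log2 fold change was -0.26 ± 0.40 for Siglec-F high against naive (adjusted p = 0.630) and -1.18 ± 0.40 for Siglec-F int against naive (adjusted p = 0.0568). This gene has a GC content of 40.7%, in the lowest quintile, where the median gene had a positive fold change in both comparisons. With the trend removed it was called lower in Siglec-F int, at -1.64 (adjusted p = 0.0183, the lowest of its 23 alternatives, whose highest was 0.162). The Siglec-F high value was then -1.14 and was not called.

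Scgb3a1, the other secretoglobin of that family, is made in the larger airways (ENSMUSG00000064057.12; chromosome 11, 49663610 to 49665118, plus strand). Its values were 141, 85.3 and 215 in Siglec-F high libraries, 119, 72.9 and 86.7 in Siglec-F int libraries and 225, 169 and 225 in naive libraries. Every Siglec-F int value was below every naive value, and the Siglec-F high libraries spread across both ranges. The log2 fold change against naive was -0.57 ± 0.40 in Siglec-F high (adjusted p = 0.287) and -1.16 ± 0.40 in Siglec-F int (adjusted p = 0.0598). With the GC and length trend removed, the first turned positive, at 0.31, and the second shrank to -0.28. The Siglec-F int libraries then stood at 156, 78.1 and 114 and the naive libraries at 169, 99.9 and 147, so that their ranges overlapped.

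Sftpa1 encodes surfactant protein A, a collectin, which is a soluble lectin of innate defence that binds microbes in the alveoli (ENSMUSG00000021789.14; chromosome 14, 41131782 to 41136452, plus strand). It stood at 1172, 596 and 697 normalized counts in Siglec-F high libraries, 409, 332 and 444 in Siglec-F int libraries and 993, 836 and 772 in naive libraries. The 3 Siglec-F int libraries were the lowest of the 9, and Siglec-F high library 1 was the highest. Group means were 822 ± 308 in Siglec-F high, 395 ± 57.2 in Siglec-F int and 867 ± 114 in naive libraries. Sftpa1 fell in Siglec-F int relative to naive by a log2 fold change of -1.13 ± 0.31 (adjusted p = 0.0248), and was lower in 3 of 3 libraries. It was called in 13 of 23 alternatives, with adjusted p from 0.00169 to 0.0814. The call was lost when any 1 of the Siglec-F int libraries (adjusted p = 0.0729, 0.0724 and 0.0630 without library 1, 2 and 3) or of the naive libraries (0.0814, 0.0528 and 0.0521) was left out. Equal totals (adjusted p = 0.0691), equal totals without mitochondrial genes, a fit without a variance trend (0.0641) and edgeR (0.0649) lost it as well. It was kept with the GC and length trend removed, at -1.63 (adjusted p = 0.00169). Against naive, Siglec-F high stood at -0.13 ± 0.31 (adjusted p = 0.761), a value whose sign turned with the scaling, to 0.0054 at equal totals and 0.024 with TMM factors. With the GC and length trend removed, the Siglec-F high value was -0.66 and was not called.

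Sftpd, surfactant protein D, is the other collectin of the alveolar surface and lies near Sftpa1 on the opposite strand (ENSMUSG00000021795.10; chromosome 14, 41172214 to 41185149). Its values were 79.0, 196 and 118 in Siglec-F high libraries, 170.2, 106 and 154 in Siglec-F int libraries and 269.5, 369.9 and 247 in naive libraries. All 6 libraries from mice given tumour cells lay below all 3 naive libraries. Sftpd fell in Siglec-F high relative to naive, at 131 ± 59.8 against 296 ± 65.4 (SD, n = 3 each), a log2 fold change of -1.24 ± 0.40 (adjusted p = 0.0361). For Siglec-F int against naive, the mean of 143 ± 33.6 gave -1.04 ± 0.40 (adjusted p = 0.0821). The Siglec-F high call held in 8 of 23 alternatives, with adjusted p from 0.0129 to 0.165. It was lost without Siglec-F high library 1 or 3 (adjusted p = 0.0629 and 0.0818), without Siglec-F int library 1 or 3 (0.0542 and 0.0586) and without naive library 1, 2 or 3 (0.0736, 0.103 and 0.0624). It was also lost at equal totals (0.0892), with TMM factors (0.0572), without a filter on low values (0.0632), without a variance trend (0.0607), in a fit of only the groups compared (0.0747) and with edgeR (0.0905). Equal totals without mitochondrial genes lost the call too. With the GC and length trend removed, the Siglec-F high value was -0.70 (adjusted p = 0.165).

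Sftpc encodes surfactant protein C, a small hydrophobic peptide of the surfactant film and the usual marker of alveolar type II cells (ENSMUSG00000022097.4; chromosome 14, 70520949 to 70524081, minus strand). It stood at 150.3, 512 and 412 normalized counts in Siglec-F high libraries, 330.1, 297 and 270.1 in Siglec-F int libraries and 606, 1136 and 632 in naive libraries. All 6 libraries from mice given tumour cells were again below the naive ones, and Siglec-F high library 1 was the lowest. The log2 fold change was -1.26 ± 0.45 for Siglec-F high against naive and -1.34 ± 0.45 for Siglec-F int against naive, with an adjusted p of 0.0537 in both. With the GC and length trend removed the values were -0.13 and -0.45, and without Siglec-F high library 1 the first was -0.72 (adjusted p = 0.0962).

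Sftpb encodes surfactant protein B, the peptide that spreads lipid at the air surface and without which newborn mice cannot breathe (ENSMUSG00000056370.15; chromosome 6, 72304610 to 72314371, plus strand). Its values were 140.4, 333.5 and 165 in Siglec-F high libraries, 275, 178 and 187 in Siglec-F int libraries and 305, 907 and 345 in naive libraries. Siglec-F high library 2 overlapped the naive range, and naive library 2 lay far above the other naive libraries. The log2 fold change was -1.21 ± 0.47 for Siglec-F high against naive (adjusted p = 0.0736) and -1.12 ± 0.47 for Siglec-F int against naive (adjusted p = 0.112). With the GC and length trend removed, the Siglec-F high value turned to 0.36 and the Siglec-F int value was -0.27. Without Siglec-F high library 1, the Siglec-F high value was -0.96 (adjusted p = 0.163).

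Ager, the receptor for advanced glycation end products, is a surface protein of alveolar type I cells (ENSMUSG00000015452.14; chromosome 17, 34597862 to 34600936, plus strand). It stood at 117, 1466 and 757 normalized counts in Siglec-F high libraries, 748, 938 and 1104 in Siglec-F int libraries and 2725, 1547 and 1175 in naive libraries. The Siglec-F int values were all below the naive ones, and Siglec-F high library 1 was far below every other library. Its log2 fold change was -1.75 ± 0.74 for Siglec-F high against naive (adjusted p = 0.0917) and -0.89 ± 0.74 for Siglec-F int against naive (adjusted p = 0.409). Its GC content, 59.4%, is the highest of the 10 genes, and with the trend removed the values were -0.12 and -0.06. Without Siglec-F high library 1, Siglec-F high stood at -0.69 against naive (adjusted p = 0.207).

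Cldn18 encodes a claudin of tight junctions in alveolar epithelium (ENSMUSG00000032473.13; chromosome 9, 99689461 to 99717267, minus strand). It stood at 42.8, 208 and 148 normalized counts in Siglec-F high libraries, 165, 155 and 159 in Siglec-F int libraries and 319, 162 and 193 in naive libraries. The groups overlapped, the Siglec-F int libraries were nearly equal, and Siglec-F high library 1 was the lowest. Its log2 fold change was -0.96 ± 0.53 for Siglec-F high against naive (adjusted p = 0.183) and -0.43 ± 0.53 for Siglec-F int against naive (adjusted p = 0.595). Without Siglec-F high library 1, the Siglec-F high value was -0.29 (adjusted p = 0.535), and with the GC and length trend removed the values were -1.06 and -0.59. The antisense gene Gm16004 overlaps Cldn18 and had 0 reads in all 9 libraries.

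Epcam encodes a cell adhesion protein found across epithelia (ENSMUSG00000045394.9; chromosome 17, 87635979 to 87651129, plus strand). It was scarce, with 79, 240 and 35 reads in all in the Siglec-F high, Siglec-F int and naive groups. Its values were 21.9, 25.1 and 14.5 in Siglec-F high libraries, 22.55, 43.0 and 30.4 in Siglec-F int libraries and 10.3, 44.3 and 7.52 in naive libraries. Naive library 2 was the highest of the 9 and the other naive libraries the lowest. Its log2 fold change was 0.36 ± 0.70 for Siglec-F high against naive (adjusted p = 0.708), which turned to -0.11 without naive library 3, and 0.96 ± 0.70 for Siglec-F int against naive (adjusted p = 0.343). With the GC and length trend removed, the Siglec-F high value was 1.31 and was not called.

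**Figure D2:**
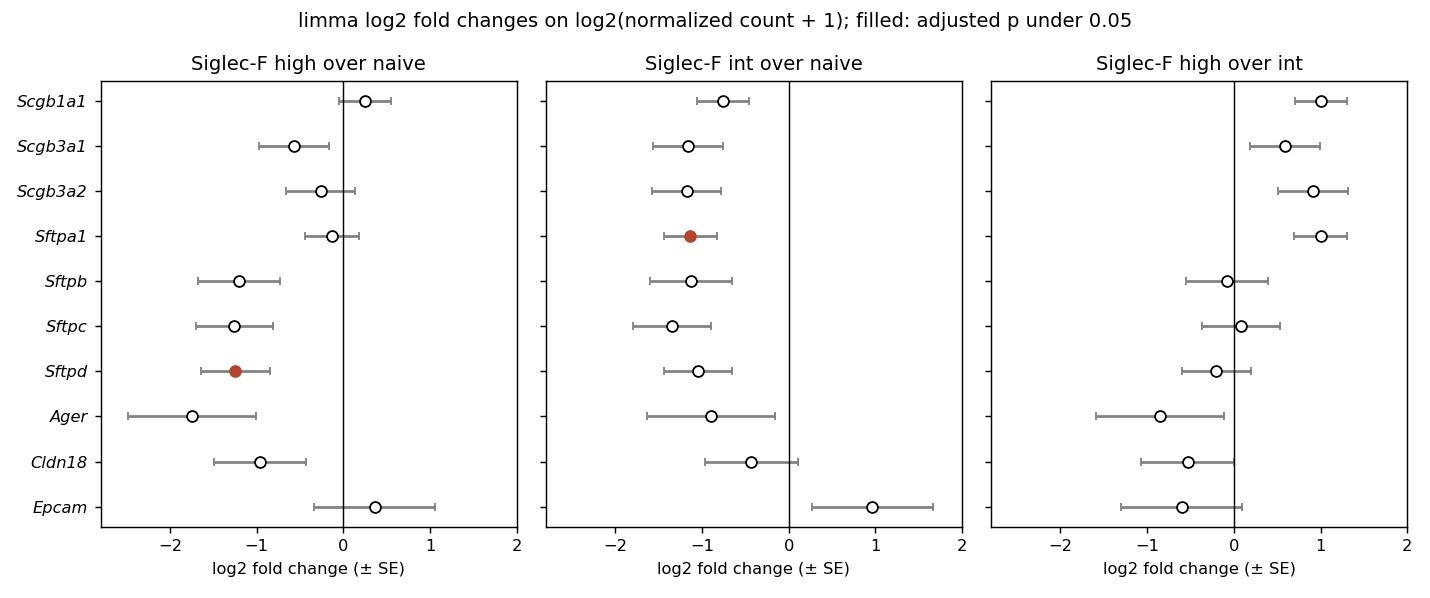
log2 fold change (horizontal axes, on log2(normalized count + 1), bars ± SE) of each gene in the 3 comparisons; filled points passed the limma test at an adjusted p under 0.05. Only Sftpd at -1.24 for Siglec-F high against naive and Sftpa1 at -1.13 for Siglec-F int against naive are filled.

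Separation of the libraries was counted as well. Against naive, 2 of the 10 genes (Sftpc and Sftpd) were without overlap in Siglec-F high, where 46.4% of all tested genes were, and 7 of 10 (Scgb3a1, Scgb3a2, Sftpa1, Sftpb, Sftpc, Sftpd and Ager) in Siglec-F int, where 50.9% of all tested genes were. All 9 of these separations were downward, as were those of 26.3% of all tested genes for Siglec-F high and 27.6% for Siglec-F int. With the GC and length trend removed, Scgb3a1, Sftpb, Sftpc and Ager overlapped in Siglec-F int, and Sftpc overlapped in Siglec-F high. Cldn18 in Siglec-F int, and Scgb3a2, Sftpa1 and (upward) Scgb1a1 in Siglec-F high, were then without overlap. The share of all tested genes was not counted with the trend removed. The count of calls depended on Siglec-F high library 1, although it is in neither group of the second comparison. Without it, limma called 6 of the 10 genes lower in Siglec-F int (Scgb1a1, Scgb3a1, Scgb3a2, Sftpa1, Sftpc and Sftpd), while 37.9% of all tested genes were called. It called none of the 10 in Siglec-F high, where 29.7% of all tested genes were called. Without Siglec-F high library 2, limma called 4 lower in Siglec-F high (Sftpb, Sftpc, Sftpd and Ager) beside 37.4% of all tested genes, and 3 lower in Siglec-F int beside 23.3%.

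Between the sorted fractions, the 10 genes fell into sets of opposite sign. Scgb1a1, Sftpa1, Scgb3a2 and Scgb3a1 were higher on average in Siglec-F high than in Siglec-F int, with log2 differences of 1.01 ± 0.30, 1.00 ± 0.31, 0.91 ± 0.40 and 0.59 ± 0.40. The first 3 of these had no overlap between the fractions, as 11.3% of all tested genes had, and 5.52% in that direction. With the GC and length trend removed, Scgb1a1 and Sftpa1 stayed without overlap, but Scgb3a2 did not. Its values were then 36.96, 71.6 and 79.2 in Siglec-F high, against 53.2, 32.2 and 42.3 in Siglec-F int. No gene was called in this comparison (0.0% of 13642 by limma, where these 4 genes had an adjusted p of 0.797). At an unadjusted p under 0.05, limma marked 591 of all tested genes (4.33%), among them Scgb1a1 (0.0064), Sftpa1 (0.0078) and Scgb3a2 (0.043). edgeR called 0 and DESeq2 called 6, none of them among the 10. In Siglec-F high relative to Siglec-F int, Sftpb stood at -0.08 ± 0.47, Sftpc at 0.09 ± 0.45 and Sftpd at -0.20 ± 0.40, while Ager stood at -0.85 ± 0.74, Cldn18 at -0.53 ± 0.53 and Epcam at -0.60 ± 0.70. Without Siglec-F high library 1, the values of Ager and Cldn18 turned to 0.20 and 0.14, those of Sftpb and Sftpd to 0.16 and 0.11, and 1 of the 10 was negative in place of 5.

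All 10 genes together took 0.133% of reads (95% Wilson interval 0.130 to 0.136), 0.177% (0.174 to 0.180) and 0.165% (0.161 to 0.168) in the Siglec-F high libraries. They took 0.128% (0.126 to 0.131), 0.0869% (0.0853 to 0.0887) and 0.114% (0.112 to 0.116) in the Siglec-F int libraries, and 0.189% (0.185 to 0.193), 0.183% (0.178 to 0.189) and 0.140% (0.137 to 0.143) in the naive libraries. The Siglec-F int libraries had the 3 lowest shares, and Siglec-F high and naive overlapped. The largest part of this sum is 1 gene: Scgb1a1 made up 53.9% to 73.0% of it in Siglec-F high, 45.0% to 55.7% in Siglec-F int and 42.3% to 49.8% in naive libraries, with the highest share in Siglec-F high library 1.

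Ratios between genes within a library do not depend on the size factors. They are ratios of counts, not set per transcript length, so each ratio is compared only between libraries. Scgb1a1 to Ager was 44.8, 2.79 and 6.10 in Siglec-F high libraries, 3.86, 2.22 and 1.84 in Siglec-F int libraries and 1.49, 3.39 and 2.36 in naive libraries. Sftpa1 to Sftpc was 7.80, 1.16 and 1.69 in Siglec-F high, 1.24, 1.12 and 1.65 in Siglec-F int and 1.64, 0.74 and 1.22 in naive libraries. In both ratios Siglec-F high library 1 stood far above the other libraries, which ran from 1.49 to 6.10 in the first and from 0.74 to 1.69 in the second. Sftpd to Sftpc was more even, at 0.53, 0.38 and 0.29 in Siglec-F high libraries, 0.52, 0.36 and 0.57 in Siglec-F int libraries and 0.45, 0.33 and 0.39 in naive libraries. Scgb1a1 to Sftpa1, a club cell gene over a gene of both type II and club cells, was 4.49, 6.85 and 6.62 in Siglec-F high, 7.06, 6.26 and 4.57 in Siglec-F int and 4.10, 6.27 and 3.60 in naive libraries. The ratios Sftpd to Sftpc and Scgb1a1 to Sftpa1 overlapped between all groups. Scgb1a1 to Sftpc was 35.0, 7.97 and 11.2 in Siglec-F high, 8.75, 6.996 and 7.51 in Siglec-F int and 6.72, 4.61 and 4.40 in naive libraries, so that all 6 libraries from mice given tumour cells lay above the naive ones. With the GC and length trend removed, this ratio overlapped between naive and Siglec-F int libraries. Scgb1a1 and Sftpc then stood at 3394 and 421 in naive library 1 and at 2300 and 303 in Siglec-F int library 2. Scgb1a1 to Scgb3a2 ran from 50.5 to 62.5 in Siglec-F int libraries, above the naive range of 35.4 to 47.9, while Siglec-F high, from 44.3 to 69.5, overlapped both. These separations of ratios were not tested.

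**Figure D3:**
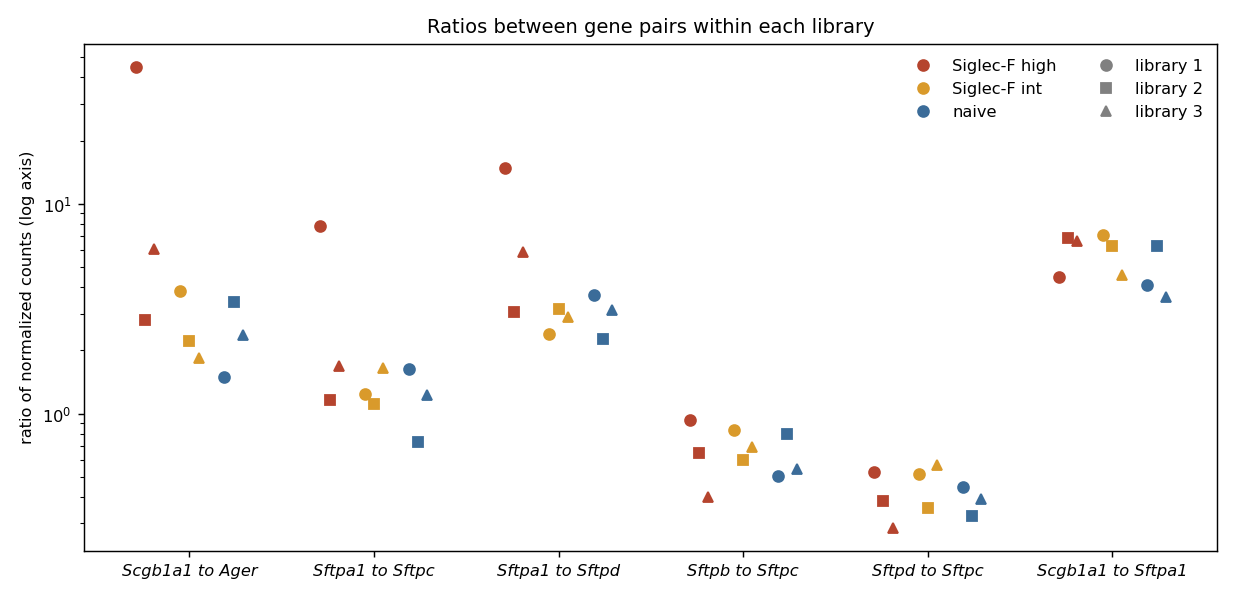
Ratio of normalized counts (vertical log axis) for 6 pairs of genes in each library, with the group as colour and the library number as symbol. Siglec-F high library 1 stands above all others for Scgb1a1 to Ager (44.8), Sftpa1 to Sftpc (7.80) and Sftpa1 to Sftpd (14.8), while the pair Sftpd to Sftpc overlaps between groups.

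Siglec-F high library 1 lay furthest from its group mates in Ager, by a log2 difference of -3.15 from the mean of libraries 2 and 3. Its other differences were -2.01 for Cldn18, -1.61 for Sftpc, -0.94 for Sftpd, -0.74 for Sftpb, -0.13 for Scgb3a2, 0.06 for Scgb3a1, 0.19 for Epcam, 0.28 for Scgb1a1 and 0.86 for Sftpa1. Over all tested genes the median of the same difference was 0.80 in the lowest quintile of GC content, 0.42, -0.09 and -0.80 in the next quintiles and -1.62 in the highest. Ager (59.4% GC) and Sftpb (58.6%) are in the highest quintile and Sftpa1 (44.0%) in the second lowest. Below the lower quartile of their own quintile lay Cldn18 (47.8% GC, lower quartile -1.13), Ager (lower quartile -3.02) and Scgb3a2 (40.7% GC, lower quartile 0.07). After removal of the trend, Cldn18 still stood at 43.9 in that library, against 205 and 142 in Siglec-F high libraries 2 and 3, and Scgb3a2 at 36.96, against 71.6 and 79.2.

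**Figure D4:**
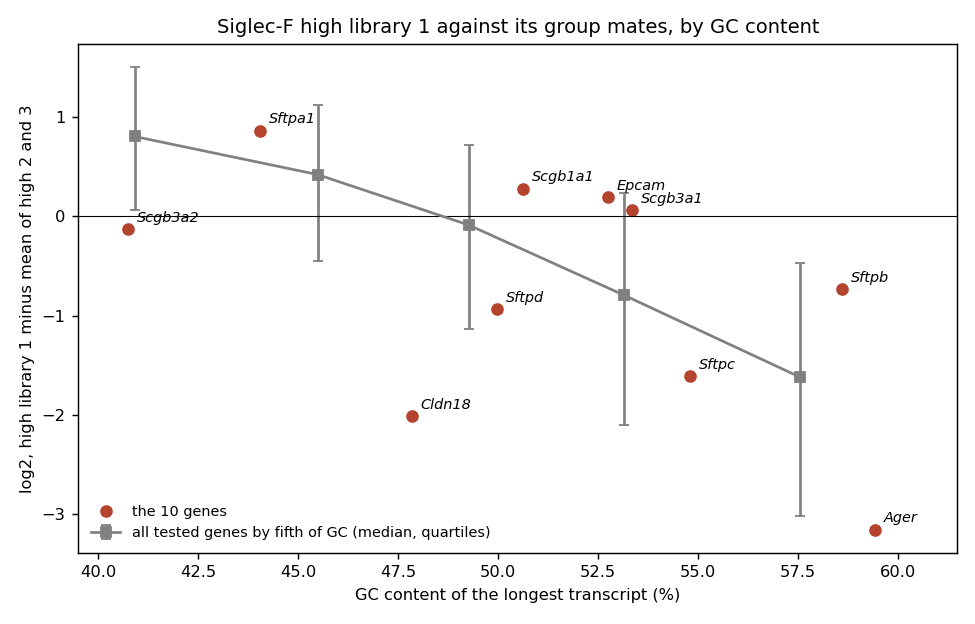
Difference on the log2 scale between Siglec-F high library 1 and the mean of Siglec-F high libraries 2 and 3 (vertical axis) against GC content of the longest transcript in percent (horizontal axis). Grey squares and bars are medians and quartiles of all tested genes by quintile of GC content, which run from 0.80 to -1.62, and red points are the 10 genes, with Ager at -3.15.

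Other genes of the same cell types were called in both directions. Of 17 further type II genes tested, 4 rose and 1 fell in Siglec-F high against naive (31.3% of all tested genes were called), and 1 rose and 1 fell in Siglec-F int (22.3%), so these counts are close to or below the background. Fasn, fatty acid synthase, which feeds lipid into surfactant, stood at 95.2 ± 51.6 in Siglec-F high, 83.5 ± 24.5 in Siglec-F int and 481 ± 94.1 in naive libraries, with log2 fold changes of -2.51 ± 0.49 (adjusted p = 0.0052) and -2.54 ± 0.49 (adjusted p = 0.0058). Il33, an alarmin cytokine that type II cells make in mouse lung, went the other way, at 409 ± 79.8, 256 ± 103 and 9.35 ± 5.46 in the Siglec-F high, Siglec-F int and naive groups (5.46 ± 0.52 and 4.72 ± 0.52, adjusted p = 2.19e-04 and 5.00e-04). Dram1, a lysosomal membrane protein, and Scd1, a fatty acid desaturase, rose in Siglec-F high, at 1.60 ± 0.43 (adjusted p = 0.0190) and 1.23 ± 0.36 (adjusted p = 0.0280). The 4th gene called higher there, Lamp3 of lamellar bodies, was named after its values were seen, at 2.92 (adjusted p = 0.0373). Abca3, the lipid pump of lamellar bodies, and Slc34a2, the phosphate carrier of type II cells, were not called and had log2 fold changes of -0.99 and -0.29 in Siglec-F high and -0.73 and -0.79 in Siglec-F int. These examples were chosen for their known role. Ctsh, at 0.48 and 1.38, and Nkx2-1, at 1.25 and 0.66, were not called either and had positive values. The median log2 fold change of the 17 further genes was 0.14 in Siglec-F high and 0.39 in Siglec-F int.

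Several other type I genes were higher in the libraries from mice given tumour cells, where Ager and Cldn18 had negative fold changes. Of 15 further ones tested, 5 rose in Siglec-F high and 4 in Siglec-F int against naive, and none fell, where 14.7% and 12.0% of all tested genes were called higher, with median log2 fold changes of 1.29 and 0.93. Pdpn, podoplanin, stood at 505 ± 34.8 in Siglec-F high, 469 ± 207 in Siglec-F int and 126 ± 28.2 in naive libraries. Cav1, caveolin, stood at 1399 ± 529, 679 ± 344 and 176 ± 81.8, and Lmo7 at 345 ± 114, 250.04 ± 39.7 and 70.0 ± 23.6, in the same order. The log2 fold changes in Siglec-F high were 2.02 ± 0.34 for Pdpn, 3.05 ± 0.53 for Cav1 and 2.29 ± 0.38 for Lmo7 (adjusted p = 0.0025, 0.0028 and 0.0023). Hopx and Emp2, named after their values were seen, were the other 2 that rose in Siglec-F high, and Hopx the other 1 in Siglec-F int. Pdpn and Cav1 are also made by fibroblasts and endothelium. The 14 listed fibroblast genes took 1.05% to 1.16% of reads in Siglec-F high, 0.439% to 1.14% in Siglec-F int and 0.249% to 0.319% in naive libraries, 8 rose and 1 fell in Siglec-F high, and 6 rose and 2 fell in Siglec-F int. Postn, Dcn and Fn1, which encode matrix proteins, rose in both (log2 fold changes of 5.44, 4.63 and 3.43 in Siglec-F high), Fbln1 fell in both (-3.28 in Siglec-F high) and Inmt fell in Siglec-F int (-1.08). None of the 14 was at 0 reads in any group. Of 14 endothelial genes, Calcrl (log2 fold change 2.09) and Ptprb (1.36) rose and Ramp2 (-1.02) fell in Siglec-F high, and Ramp2 (-1.21) fell in Siglec-F int, and they took 0.0349% to 0.0424%, 0.0229% to 0.0378% and 0.0349% to 0.0388% of reads in the Siglec-F high, Siglec-F int and naive libraries. Their part in the result was not tested.

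Among 18 further club and secretory genes tested, 1 rose and 2 fell in Siglec-F high against naive, and 1 rose and 5 fell in Siglec-F int, where 16.6% and 10.3% of all tested genes were called lower in Siglec-F high and Siglec-F int. Gsta4, a glutathione transferase, fell in both, at 72.4 ± 31.3 in Siglec-F high, 40.3 ± 18.04 in Siglec-F int and 899 ± 144 in naive libraries (log2 fold changes of -3.68 ± 0.43 and -4.53 ± 0.43, adjusted p = 4.37e-04 and 2.79e-04). Chad fell in Siglec-F high, where it had 0 reads, against 13.4 ± 7.02 in naive libraries. Retnla, a secreted protein of the resistin family, and Lypd2 fell in Siglec-F int, at -1.90 ± 0.44 (adjusted p = 0.0131) and -3.21 ± 0.88 (adjusted p = 0.0256). Cyp2f2, the cytochrome P450 of mouse club cells, and Pon1 were the others that fell there and were named after their values were seen. Cyp2f2 stood at 485 ± 43.7 in Siglec-F high, 294 ± 10.6 in Siglec-F int and 947 ± 539 in naive libraries, and its log2 fold change in Siglec-F int was -1.45 ± 0.46 (adjusted p = 0.0432). Cd24a, a surface protein also found on many leukocytes, was the 1 that rose, at 1.60 ± 0.44 and 1.35 ± 0.44 in Siglec-F high and Siglec-F int (adjusted p = 0.0204 and 0.0480).

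Markers of the remaining airway types were few. Of 18 ciliated cell genes, 6 were tested and Tppp3 fell in Siglec-F high (-2.14 ± 0.65, adjusted p = 0.0312), with no call in Siglec-F int. Of 10 goblet cell genes, 3 were tested, and Bpifb1, an antimicrobial secreted protein, fell in both (-1.23 ± 0.42 and -1.46 ± 0.42, adjusted p = 0.0480 and 0.0323). The goblet mucin Muc5ac was at 0 reads in the Siglec-F high and Siglec-F int libraries and averaged 0.87 in naive ones. Of 13 basal cell genes, 6 were tested, and the only call in either comparison was Pdpn, which is also in the type I list. Of 24 junction and keratin genes tested besides Epcam and Cldn18, 1 rose and 2 fell in Siglec-F high, and 1 rose and 3 fell in Siglec-F int. These junction and keratin counts were below the 31.3% and 22.3% of all tested genes called in Siglec-F high and Siglec-F int. Spint1, a protease inhibitor of epithelia, rose in both (1.75 ± 0.57 and 2.70 ± 0.57, adjusted p = 0.0394 and 0.0082), Cdh3, P-cadherin, fell in both (-3.35 ± 1.04 and -3.20 ± 1.04, adjusted p = 0.0326 and 0.0484), Krt19 fell in Siglec-F high (-1.999 ± 0.66, adjusted p = 0.0420), and Pkp2 and Pard6b fell in Siglec-F int (-2.29 ± 0.58 and -2.30 ± 0.75, adjusted p = 0.0188 and 0.0496).

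Of 14 transcription factors and coactivators of epithelia tested, 5 rose in Siglec-F high and 6 in Siglec-F int against naive, and none fell. The share of all tested genes called higher was 14.7% in Siglec-F high and 12.0% in Siglec-F int. Sox9, a factor of distal lung progenitors and of cartilage, stood at 4164 ± 1215 in Siglec-F high, 3042 ± 1256 in Siglec-F int and 215 ± 38.1 in naive libraries (4.24 ± 0.38 and 3.73 ± 0.38, adjusted p = 1.49e-04 and 4.15e-04). Irx2 and Tead1 also rose in both, by 4.15 ± 0.56 and 2.52 ± 0.50 in Siglec-F high and 3.63 ± 0.56 and 2.004 ± 0.50 in Siglec-F int. Nkx2-1, whose motif is marked in the promoters above, averaged 63.4 ± 51.0 in Siglec-F high, 33.4 ± 5.07 in Siglec-F int and 27.1 ± 21.5 in naive libraries and was not called (adjusted p = 0.228 and 0.571). Of 15 mammary epithelial genes tested, included since PyMT cells are mammary tumour cells, 4 rose and 2 fell in each comparison. In either direction, 31.3% of all tested genes were called in Siglec-F high and 22.3% in Siglec-F int. Gata3 (log2 fold changes of 5.88 and 5.65 in Siglec-F high and Siglec-F int), Areg (5.14 and 4.87) and Trps1 (2.80 and 3.10) rose, and Cited1 (-8.06 and -6.50) and Erbb3 (-4.51 and -4.80) fell. Cited1 and Erbb3 were highest in the naive libraries, as the pigment cell markers were, and the cells they came from were not tested. None of the genes in any of these lists was called between Siglec-F high and Siglec-F int.

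Leukocyte and macrophage markers are given beside these counts because the sorted cells were leukocytes by label. The 12 leukocyte genes took 0.349% to 0.453% of reads in Siglec-F high, 0.412% to 1.20% in Siglec-F int and 0.162% to 0.209% in naive libraries, 5 of them rose in each comparison, among them Ptprc, Cd53 and Itgam (log2 fold changes of 2.40, 2.17 and 1.75 in Siglec-F high, 3.07, 2.21 and 2.42 in Siglec-F int), and none was at 0 reads in a group. Of 8 eosinophil genes tested, 1 rose in each comparison, Il1rl1 (log2 fold changes of 5.79 and 5.12), the IL-33 receptor, which other cells also carry. Of 18 alveolar macrophage genes tested, 4 rose and 1 fell in Siglec-F high, and 3 rose in Siglec-F int. Over all tested genes, 14.7% were called higher and 31.3% in either direction in Siglec-F high, and 12.0% and 22.3% in Siglec-F int. The eosinophil and macrophage counts were below the shares called in either direction. Mrc1 (log2 fold changes of 2.99 and 2.64) and Lpl (1.54 and 1.61) rose in both, Chil3 rose in Siglec-F high (1.07), Itgax rose in Siglec-F int (1.76), and Krt19, given above, fell in Siglec-F high. All 12 pigment cell genes fell in both, with median log2 fold changes of -7.42 and -6.84, led by Pmel (-8.90 and -7.85), Dct (-7.42 and -7.25) and Gpnmb (-4.84 and -3.85), which had the smallest adjusted p. The part of these cell types in the values of the 10 genes was not tested.

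The genes whose levels were most like each of the 10, by Pearson's r of log2(normalized count + 1) over the 9 libraries, are given as a description, since all points share the libraries and their GC trend. For Sftpc they were Arl2 (0.985), Nenf (0.983) and Cbr2 (0.982), the last a carbonyl reductase of club and type II cells in mouse lung. For Sftpd they were Prrc1 (0.985), Kazn (0.985) and Rnf126 (0.983). For Ager they were Fbf1, Pop4 and Sssca1, and for Cldn18 Rnaseh1, Cltb and Faah, all with r of 0.98 or 0.99 and, without the 2 libraries farthest from the median, of 0.76 to 0.92. Sftpa1 was most like Cenpw (0.977), Pitpnm2 (0.970) and 2300009A05Rik (0.964). Scgb1a1 was most like Pcdh12 (0.921), Emcn (0.918) and Dctn6 (0.915), of which Pcdh12 and Emcn are endothelial surface proteins. Scgb3a2 was most like Chil1 (0.937), Gpm6a (0.926) and Serpinb1a (0.904), and Scgb3a1 most like Rbbp5 (0.957), Pfn2 (0.939) and Lig3 (0.931). Sftpb was most like Heatr6 (0.964), Slc4a2 (0.945) and 1700037H04Rik (0.943), and Epcam most like Cd101 (0.939), Pde1b (0.935) and Apba1 (0.934).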

How the data were processed

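RNA was sequenced from 9 libraries in 3 groups of 3 pools. Per the submitters' processing notes, TopHat2 2.1.0, HTSeq, DESeq2 1.10.0 and the build GRCm38 were used, and per the labels' protocols, libraries followed a protocol named Cell-seq from RNA with an integrity number above 6.3. The signal values in the deposited table are normalized counts: the authors scaled the reads of each gene by library size factors and rounded them. Whole reads were recovered from their steps: 100% of values up to 2000 reads were whole within 0.05 read.

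Of 54670 entries, 63 with a name turned into a date (0.219% of the total), 116 exact duplicates and 42 repeats were left out. Genes with a mean of at least 5 were tested on log2(value + 1) with limma 3.58.1 (R 4.3.3), with all 9 libraries in 1 fit, a variance trend and Benjamini-Hochberg adjustment. Tests were two-sided, and p-values measure the spread between pools. Wilson intervals cover counting error only, since the sources do not say if molecular identifiers were used. Positions, GC content and lengths come from GENCODE M21 (99.9% of genes matched).

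The 10 genes and the 15 marker lists were chosen with earlier results of these data known. From each list, up to 3 called genes per direction and comparison with the smallest adjusted p were named, and for each of the 10 genes the 3 genes most like it. Alternatives were other pseudocounts (0.5 and 5), filters (none, and a mean of at least 20), scalings, no variance trend, a fit of only the groups compared, the replicate number as a block, each library left out, and count tests of the recovered reads (edgeR 4.0.16, DESeq2 1.42.0). Leaving out Siglec-F high library 1 with Siglec-F int library 2, equal totals without mitochondrial genes, and subtraction of a loess trend on GC content and length (span 0.3) were added after seeing the data. The fit was tested on simulated data.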

Additional observations from a re-analysis of the deposited data

How the results depend on the processing

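Over all tested genes, limma called 4266 in Siglec-F high against naive (1999 higher, 2267 lower) and 3036 in Siglec-F int against naive (1634 higher, 1402 lower). Scaling moved this split to 2141 higher and 1614 lower at equal totals for Siglec-F high, and 2281 and 1840 with TMM, and to 2009 and 898 at equal totals for Siglec-F int, and 1929 and 1100 with TMM. The median log2 fold change of all tested genes was 0.02 at equal totals and 0.04 with TMM for Siglec-F high (-0.11 as deposited), and 0.23 and 0.14 for Siglec-F int (-0.02 as deposited). A fit of only the groups compared gave 2509 and 4808 calls. Leaving out 1 library gave 2770 to 5101 and 1401 to 5167, with the lowest without naive library 1 and Siglec-F int library 3 and the highest without Siglec-F high library 2 and library 1. Siglec-F int library 1 (1497) and naive library 1 (1939) also moved the second count by over 1.5 times. With library 1 of Siglec-F high and library 2 of Siglec-F int both left out, the second count was 4623. Between the fractions DESeq2 gave 6 calls in place of 0.

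Of the 10 genes none was called higher under any alternative. edgeR called none of them, while it called 26% of all tested genes in Siglec-F high and 21.1% in Siglec-F int. DESeq2 called Sftpd lower in Siglec-F high, beside 36.4% of all tested genes. It called Scgb3a1, Scgb3a2, Sftpa1 and Sftpc lower in Siglec-F int, beside 29.5%. A fit of only the groups compared called 5 of the 10 genes lower in Siglec-F int (Scgb3a1, Scgb3a2, Sftpa1, Sftpc and Sftpd) and none in Siglec-F high. The same fit called 35.2% and 18.4% of all tested genes. For Siglec-F high against naive, Sftpa1 turned positive at equal totals (0.0054, or 0.081 without mitochondrial genes), with TMM (0.024), edgeR (0.092) and DESeq2 (0.051), and with the GC trend removed Scgb3a1 (0.31) and Sftpb (0.36) did. For Siglec-F high against Siglec-F int, Sftpc turned to -0.043 at equal totals. Sftpb turned to 0.014 with DESeq2, 0.62 with the GC trend removed and 0.048 with both libraries left out, where Ager was 0.21 and Cldn18 0.12. Leaving out 1 library at a time turned the sign of Epcam (range -0.11 to 1.097) and Sftpa1 (-0.42 to 0.068) for Siglec-F high against naive. Against Siglec-F int it turned that of Sftpb (-0.46 to 0.16), Sftpd (-0.54 to 0.11), Ager (-1.62 to 0.20), Cldn18 (-0.99 to 0.14) and Sftpc (-0.26 to 0.62). The cause was not tested.

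With the replicate number as a block, 4317, 3091 and 0 genes were called (31.6% and 22.7% of all tested genes in the comparisons with naive). Of the 10 genes, Sftpc and Sftpd were called in Siglec-F high and Scgb3a1, Sftpa1 and Sftpc in Siglec-F int. Deviations from the group means of same-numbered libraries correlated at -0.03 to 0.06 between naive and either fraction. Between the sorted fractions, same-numbered libraries correlated at 0.123, 0.141 and 0.0718, and all other pairs at -0.157 to -0.0105. The labels do not state that the numbers pair libraries, so the main fit took none as pairs. Whether the fractions were sorted from the same mice was not tested. Depth limits Epcam most.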
